A study of Mus musculus with 4 samples.

Results

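A set of 121 microRNA genes was examined in mouse early blastocysts from in vitro fertilization (IVF) and from somatic cell nuclear transfer (SCNT), where a body cell's nucleus takes the place of the oocyte's own. The set holds every microRNA row outside the Mir290 to Mir295 cluster whose mean over the 4 libraries was at least 1 FPKM (fragments per kilobase of transcript, scaled to the mapped total, a unit inferred for these values). It makes up 121 of 608 such microRNA rows and of 23235 gene symbols in all. Each group had 2 libraries of 6 pooled embryos, and embryos were lysed at 96 hours from fertilization or activation. For IVF, oocytes with the Xist knockout on a 129S1 background met sperm of wild-type CAST/EiJ males. For SCNT, the donor nuclei were those of mouse embryonic fibroblasts (129S1 mother, CAST/EiJ father) heterozygous for the same knockout, placed in oocytes of B6D2F1/J females. Both groups thus carry a knockout allele of Xist. The file headers name the histone demethylase gene Kdm4d for the SCNT columns, which the labels do not mention. The labels name no separate parents or days for libraries of 1 group. The p-values therefore reflect only how far these libraries differ, which may be technical.

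MicroRNAs are short RNAs cut from hairpins in longer primary transcripts. Drosha with Dgcr8 releases the hairpin in the nucleus, exportin-5 (Xpo5) carries it out, Dicer1 cuts it, and an Argonaute protein holds 1 strand and pairs its seed, bases 2 to 8, with target messenger RNAs. In mouse embryonic stem cells several genes of the Mir290 to Mir295 cluster and the Mir302 genes are known for sharing a seed. Mir367, in the cluster of the Mir302 genes, has another seed. The let-7 family is known for rising as cells differentiate. The cDNA here was sheared before library preparation, so a fragment over a hairpin gene can come from the hairpin, its primary transcript or another transcript with the same letters. These sources cannot be told apart, and the values are no measure of mature microRNA.

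The mature sequences below are from RefSeq on GRCm38.p6, with the seed in capitals, and 1 arm is shown where a hairpin gives 2. The first 6 belong to members that were above 0 in both libraries of 1 group and at 0 in both of the other, and were called. Mir4660, of the same kind, is named only.
Mir207 (miR-207), chr4:40722968-40722990, plus strand: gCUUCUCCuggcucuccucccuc
Mir1938 (miR-1938), chr12:40222782-40222803, minus strand: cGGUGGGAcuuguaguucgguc
Mir1931 (miR-1931), chr10:93162879-93162900, plus strand: aUGCAAGGgcuggugcgauggc
Mir3473d (miR-3473d), chr8:111016498-111016521, minus strand: cCACUGAGccacuuuccagcccuu
Mir181a-2 (miR-181a-5p), chr2:38852741-38852763, plus strand: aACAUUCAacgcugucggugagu
Mir690 (miR-690), chr16:28599940-28599961, minus strand: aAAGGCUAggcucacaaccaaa
The next 4 belong to members of high FPKM whose hairpins match or resemble transcripts of abundantly expressed genes. For Mir692-1 that gene is Ftl1, at 94.6% identity, which is under the 95% limit of the search below. For Mir5121 the match is an Rpl13a transcript that keeps an intron.
Mir703 (miR-703), chr5:98475616-98475636, minus strand: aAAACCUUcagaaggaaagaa
Mir692-1 (miR-692), chr17:6895259-6895279, minus strand: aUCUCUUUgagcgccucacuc
Mir686 (miR-686), chr14:54616746-54616767, minus strand: aUUGCUUCccagacggugaaga
Mir5121 (miR-5121), chr7:45126925-45126945, minus strand: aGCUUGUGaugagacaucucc
The last 9 are grouped by seed, GAGGUAG for the let-7 group, AAGUGCU for Mir302b and Mir302d, and AUUGCAC for Mir25 and Mir367.
Mirlet7d (let-7d-5p), chr13:48536078-48536099, minus strand: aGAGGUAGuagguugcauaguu
Mirlet7e (let-7e-5p), chr17:17830366-17830387, plus strand: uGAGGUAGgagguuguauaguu
Mirlet7a-1 (let-7a-5p), chr13:48538239-48538260, minus strand: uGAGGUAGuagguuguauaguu
Mir98 (miR-98-5p), chrX:151913229-151913250, plus strand: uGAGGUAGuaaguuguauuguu
Mir1961 (miR-1961), chr5:92788465-92788481, minus strand: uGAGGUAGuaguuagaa
Mir302b (miR-302b-3p), chr3:127545275-127545297, plus strand: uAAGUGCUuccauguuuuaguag
Mir302d (miR-302d-3p), chr3:127545665-127545687, plus strand: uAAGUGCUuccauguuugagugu
Mir25 (miR-25-3p), chr5:138165332-138165353, minus strand: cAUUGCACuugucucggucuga
Mir367 (miR-367-3p), chr3:127545779-127545800, plus strand: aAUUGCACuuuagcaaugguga

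Among the mature entries of the RefSeq table, the seed GAGGUAG stood in those of 5 members, of 13 genes. These are counts of entries, and Mirlet7a-2 and Mir302a have an entry for 1 arm each, not the arm with the seed of their family. The seed AAGUGCU of Mir302b and Mir302d was also that of Mir291a, Mir294 and Mir295, of the cluster left out of the set. Some genes give the same mature RNA, as Mir692-1, Mir692-2 and Mir692-3 do for miR-692 and Mir181a-1 and Mir181a-2 do for miR-181a-5p, so a row names a gene and not a mature RNA of its own.

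Most members were detected in few libraries. Of the 121 members, 57 were above 0 in 1 library, 25 in 2, 15 in 3 and 24 in all 4, where a value at or below 1e-06 counts as 0. Thus 236 of the 484 values were 0. IVF libraries 1 and 2 had 54 and 65 members above 0, and SCNT libraries 1 and 2 had 62 and 67, so the groups overlapped in this count. Of the 25 members above 0 in 2 libraries, 15 had 1 library of each group, 5 had both IVF and 5 had both SCNT libraries. The 2 values lay within 10% of each other for 10 of these 25 members, and 6 of those 10 had 1 library of each group.

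The rule chose members by their mean FPKM, so the levels near its limit are a description only. The lowest members were Mir669e, at 13.2 FPKM in SCNT 1 and 0 elsewhere (mean 3.31), and Mir1186, at 13.5 FPKM in IVF 1 and 0 elsewhere (mean 3.38). The highest rows outside were Mir147, with a mean of 0.0128 FPKM, and Mir92-1, with a mean of 0.00916 FPKM. No row lay between 0.0128 and 3.31, and 480 of the other 487 rows were at 0 in all libraries. A mean of at least 1 FPKM therefore took nearly every microRNA row with a value above 0 in any library.

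One member is not a hairpin. Mir17hg is the primary transcript of the Mir17-92 cluster, a group of hairpins known for promoting cell division, and had values of 2.78 and 3.40 FPKM in IVF and 4.40 and 3.08 FPKM in SCNT. The other 120 are hairpin genes, and 116 of them had a length in the RefSeq table, from 59 to 131 nucleotides with a median of 87. FPKM divides by length, so the same number of fragments gives a higher FPKM in a shorter gene. Among the 54 such hairpins above 0 in 1 library, the 6 of 59 to 75 nucleotides lay between 106 and 242 FPKM, and the 8 of 106 to 131 nucleotides lay between 13.2 and 20.4 FPKM. Their medians were 147 and 18.4 FPKM, a wider ratio than that of their lengths. The reason was not tested. Spearman's rho of length with FPKM over those 54 genes was -0.86, a description across genes that share 4 libraries. Over all 116 hairpins, length and mean FPKM had a rho of -0.40. Read depth is unknown, since the files hold no counts, so the counting error behind a single value cannot be given.

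**Figure D1:**
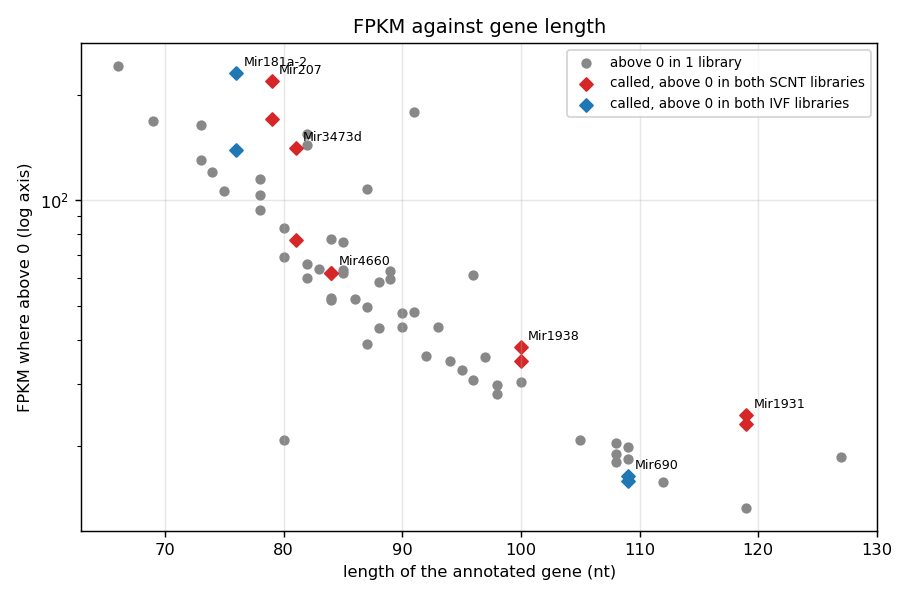
FPKM where above 0 (log axis) against annotated gene length in nucleotides. Grey points are hairpin members above 0 in 1 library, and diamonds are both values of each called member, red where above 0 in SCNT alone and blue where above 0 in IVF alone. FPKM falls with length, from 242 FPKM at the highest to 13.2 FPKM at the lowest, and both values of Mir4660 lie at 62.3 FPKM among the grey points.

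Mir703 and Mir692-1 held most of the summed FPKM of the set. Together they gave 88.1% and 88.8% of it in IVF 1 and 2 and 88.9% and 84.0% in SCNT 1 and 2. The members summed to 87614 and 93404 FPKM in IVF and to 62204 and 72293 FPKM in SCNT, or 9.39%, 9.48%, 6.50% and 7.40% of all FPKM in those libraries. Both SCNT sums were below both IVF sums, with a difference of the means of -23260 FPKM against a pooled SD of 5816 FPKM between libraries of a group (n = 2 each). Without Mir692-1 alone the difference was -7298 FPKM, and without Mir703 alone it was -17158 FPKM. With 2 libraries a group, an exact permutation test cannot give a two-sided p below 0.333, so none is given. Without Mir703 and Mir692-1 the sums were 10465 and 10428 FPKM in IVF and 6922 and 11580 FPKM in SCNT, which overlapped. In whole embryos, fewer cells of a type and less RNA per cell cannot be told apart.

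Mir703 was at 46674 and 31949.5 FPKM in IVF against 35528 and 30892 FPKM in SCNT. The groups overlapped, with a difference in log2(FPKM + 1) of -0.22 ± 0.35 (SE), SCNT minus IVF. Its hairpin had 107 of 109 bases identical to a transcript of Eef1a1, the elongation factor that brings tRNAs to the ribosome, though RefSeq places Mir703 on chromosome 5 in an intron of 1700007G11Rik, on the other strand. Eef1a1 itself was at 2976 and 1846 FPKM in IVF and 3348 and 1806 FPKM in SCNT. Both genes were higher in library 1 than in library 2 of each group. Fragments of such shared sequence cannot be given to 1 gene with certainty.

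Mir692-1 was at 30474 and 51027 FPKM in IVF against 19754 and 29821 FPKM in SCNT. Both SCNT values lay below both IVF values, by a difference of -0.70 ± 0.42 (SE) on the log2(FPKM + 1) scale that did not pass (limma, Benjamini-Hochberg adjusted p = 0.898). Its hairpin matched Ftl1-ps1, a gene named as a copy of Ftl1, at 96.4% identity and Ftl1, the light chain of the iron store ferritin, at 94.6% (105 of 111 aligned positions). Ftl1 was at 7213 and 12756 FPKM in IVF and 5966 and 9349 FPKM in SCNT. The highest and the lowest library were the same for both genes, IVF 2 and SCNT 1.

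Mir686 lies within the coding sequence of Psmb5, which encodes a catalytic subunit of the proteasome, on the same strand. Its hairpin is shown to let those coding letters be seen, with the mature microRNA in capitals.
Mir686 hairpin, chr14:54616677-54616785 of GRCm38.p6, minus strand: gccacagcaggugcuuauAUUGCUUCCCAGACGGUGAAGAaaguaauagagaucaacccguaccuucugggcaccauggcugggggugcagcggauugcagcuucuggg
It was listed at 234 and 1047 FPKM in IVF against 0.0782 and 858 FPKM in SCNT, while Psmb5 was at 782 and 934 FPKM in IVF against 729 and 972 FPKM in SCNT. SCNT 1 alone stood near 0 for the hairpin gene, and the SCNT minus IVF difference of -4.03 ± 3.10 (SE) in log2(FPKM + 1) did not pass (adjusted p = 0.963). Psmb5 differed by -0.02 ± 0.25 (SE) on that scale.

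The other members of the 10 with the highest mean lay inside longer genes. An exon is here that of any annotated transcript of the gene, also of a transcript that keeps an intron or is marked for decay. Mir3064 lies in an untranslated exon of Ddx5, an RNA helicase that works with Drosha, and matched a Ddx5 transcript marked for decay. It was at 2142 and 1438 FPKM in IVF against 263 and 985 FPKM in SCNT. Both SCNT values were lower, but the difference of -1.78 ± 0.65 (SE) did not pass (adjusted p = 0.656), and Ddx5 itself was at 82.7 and 79.9 FPKM in IVF against 86.4 and 79.5 FPKM in SCNT. Mir3063, in an untranslated exon of the RNA-binding protein gene Igf2bp1, was at 1492 and 434 FPKM in IVF and 1087 and 1003 FPKM in SCNT, so the groups overlapped. Oaz1 encodes an inhibitor of polyamine synthesis, and Mir1982 lies in an exon of a transcript of it that keeps an intron. Mir1982 was at 692 and 1549 FPKM in IVF and 410 and 1195 FPKM in SCNT. These also overlapped, and the higher value of each group was that of library 2. Mir3091, in an intron of the ribosomal protein gene Rps21, was at 283 and 582 FPKM in IVF against 272 and 240 FPKM in SCNT, with both SCNT values lower and an adjusted p of 0.884.

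Mir5121 lies in an exon of a transcript of the ribosomal protein gene Rpl13a that keeps an intron. It was at 427 and 0 FPKM in IVF and 408 and 742 FPKM in SCNT. IVF 2 alone was at 0, and in that library Rpl13a was at 1392 FPKM. Mir1949, inside the noncoding gene Snhg4, was at 614 and 1043 FPKM in IVF against 393 and 538 FPKM in SCNT, with both SCNT values lower (adjusted p = 0.758). Mir1893, in an exon of Epc1, a subunit of a histone acetyltransferase complex, was at 123 and 342 FPKM in IVF against 219 and 693 FPKM in SCNT, which overlapped. Another match was that of Mir682, at 194 and 96.3 FPKM in IVF and 150 and 133 FPKM in SCNT, with 95 of 96 bases identical to the ribosomal protein gene Rpl37a. Rpl37a was higher in library 2 of each group, and Mir682 in library 1.

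**Figure D2:**
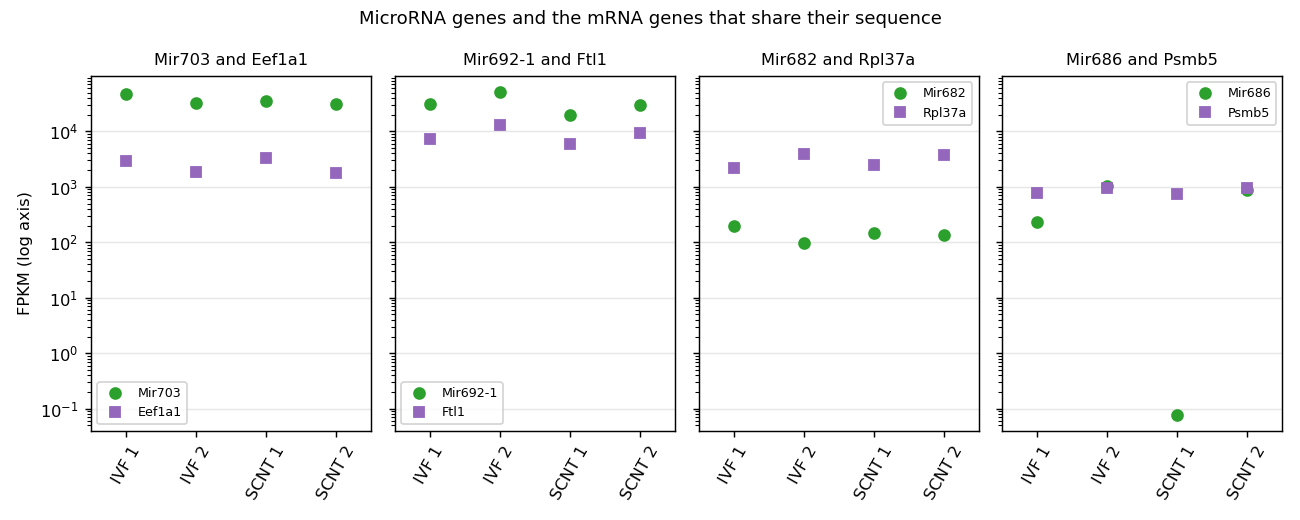
FPKM (log axis) in each library of 4 microRNA genes (circles) and of the messenger RNA genes that share their sequence (squares). Mir703 and Mir692-1 lie above Eef1a1 and Ftl1 in each library, Mir682 lies below Rpl37a, and Mir686 departs from Psmb5 in SCNT 1, at 0.0782 FPKM.

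The hairpins were also searched in the transcripts of all other genes, with at least 95% identity over at least 90% of the hairpin. A match was found for 46 of the 93 members with a hairpin sequence (49.5%) and for 78 of the 388 other microRNA rows with one (20.1%). In a gene of at least 1 FPKM, a match was found for 37 members (39.8%) and for 30 of the other rows (7.73%). For 30 of the 46 members the match was a transcript of the gene that holds the hairpin.

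Members lay more often inside expressed genes than the other rows did, as counts with no test. Of the 117 members placed in RefSeq, 98 (83.8%) lay inside a longer gene, against 329 of 481 other rows (68.4%). The longer gene had a mean of at least 1 FPKM for 88 members (75.2%) and for 162 other rows (33.7%). The median level of the measured genes that held a member was 11.5 FPKM, against 1.36 FPKM for the genes that held the other rows. Of those 98 members, 54 lay in introns, 30 in exons and 7 partly in exons of the longer gene, 75 on its strand and 21 on the other strand. Members in exons had a median mean level of 52.1 FPKM and members in introns 18.6 FPKM, levels the rule itself used. The exons are those of any annotated transcript, including transcripts that keep an intron.

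Of the 121 members, 5 were at 0 in both IVF libraries and above 0 in both SCNT libraries, and 5 the other way. Over all 11039 genes tested, 6 (0.0544%) and 8 (0.0725%) had these patterns. Such members met the limit on mean FPKM, and entered the test, only through the group where they are above 0. Their difference therefore follows from how they were chosen, and they are described by their values, with no fold and no p. In limma, at a Benjamini-Hochberg adjusted p under 0.05, the members called were 7 of these 10, 5 higher and 2 lower in SCNT, and no other. Among all tested genes 14 were called (0.127%), 0.0725% higher and 0.0544% lower, and among the 84 other short RNA genes tested (Mir290 to Mir295 and small nucleolar RNA genes) 4 were called, 1 higher and 3 lower. Nothing is read from the members' count beside these. With 1 library left out the number of members called was 26 without IVF 1, 29 without IVF 2, 26 without SCNT 1 and 21 without SCNT 2, where the lone library of a group is assumed to vary like the other group.

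Mir207 was at 219 and 170 FPKM in SCNT, with both IVF libraries at 0. Both values lay above those of its 6 neighbours in length, the members above 0 in 1 library whose length is within 2 nucleotides, which lay between 20.8 and 115 FPKM. It lies partly in an exon of Dnaja1, a co-chaperone of heat shock proteins, on the same strand, and Dnaja1 was at 136 and 115 FPKM in IVF and 145 and 105 FPKM in SCNT. The holding gene thus overlapped between groups, with a difference in log2(FPKM + 1) of -0.01 ± 0.24 (SE). Mir3473d, in an intron of the RNA helicase gene Ddx19b, was at 77.0 and 141 FPKM in SCNT, with both IVF libraries at 0. These values lay within the range of its 8 neighbours in length, 20.8 to 155 FPKM, and Ddx19b differed by 0.04 ± 0.17 (SE) between groups.

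Mir4660, listed in RefSeq as Mir466o in an intron of Sfmbt2, was at 62.2571 and 62.2593 FPKM in SCNT, with both IVF libraries at 0. Its 2 values differed by a ratio of 1.00004, and its 12 neighbours in length had a median of 63.6 FPKM. Mir1938, in an intron of Ifrd1, was at 38.2 and 34.9 FPKM in SCNT, and its 3 neighbours in length lay lower, between 28.0 and 30.3 FPKM. Mir1931, in an intron of the kinase gene Cdk17, was at 24.5 and 23.0 FPKM in SCNT, beside 1 neighbour in length at 13.2 FPKM. Both IVF libraries were at 0 for each of these genes.

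Of the members above 0 in IVF alone, Mir181a-2 was at 139 and 230 FPKM, above its 5 neighbours in length, which lay between 93.9 and 121 FPKM. It lies in an intron of Nr6a1, a nuclear receptor gene known for repressing Pou5f1, on the other strand, and Nr6a1 was at 2.66 and 1.48 FPKM in IVF and 1.75 and 1.44 FPKM in SCNT. Mir690, in an intron of the growth factor gene Fgf12, was at 16.4 and 15.9 FPKM in IVF, with both SCNT libraries at 0. Both values lay below its 5 neighbours in length, between 18.0 and 20.4 FPKM, and Fgf12 had a mean of 0.00989 FPKM.

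Mir1b, Mir5046 and Mir5113 were also above 0 in both IVF libraries and at 0 in both SCNT libraries, and were not called. The first, in an intron of the ubiquitin ligase gene Mib1, was at 24.7 and 10.8 FPKM in IVF. Mir5046, in an exon of the kinase gene Rps6ka4, was at 354 and 0.0220 FPKM in IVF, and Mir5113, in an exon of Tnrc6b, at 36.7 and 0.00267 FPKM. For those 2 genes the second IVF value was close to 0.

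Of the members, 11 had both SCNT values above both IVF values and 10 had both below. Over all genes tested, 18.3% were higher and 15.1% lower in this way. The share of members, with so many values at 0, was thus below that of all genes in both directions. The median difference was 0.0042 log2 units over the members and 0.01 over all genes tested, and 62 members had a higher and 59 a lower estimate in SCNT.

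None of the 24 members above 0 in all 4 libraries passed in limma, and 4 had an unadjusted p under 0.05, 3 higher and 1 lower. Over all tested genes 7.09% had such a p, 4.25% higher and 2.84% lower. Mirlet7d, a let-7 gene, was at 22.9 and 22.8 FPKM in IVF against 66.4 and 45.3 FPKM in SCNT, both SCNT values being higher (difference 1.23 ± 0.24 SE, adjusted p = 0.320). Mir763, in an intron of Hmga2, a chromatin protein gene that is a known let-7 target, was at 218 and 126 FPKM in IVF against 351 and 309 FPKM in SCNT (difference 0.99 ± 0.31 SE, adjusted p = 0.551). Hmga2 itself was at 55.9 and 45.4 FPKM in IVF against 50.0 and 38.9 FPKM in SCNT. Its groups overlapped, whereas those of the hairpin gene did not. Mir719, partly in an exon of the nuclear pore gene Nupl1, was at 16.9 and 0.00372 FPKM in IVF against 72.8 and 120 FPKM in SCNT (adjusted p = 0.527), and Mir3064, above, was the fourth.

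Mir3112 and Mir1896 had groups that did not overlap and did not pass either. The former, in an untranslated exon of the RNA cleavage factor gene Cstf2, was at 220 and 249 FPKM in IVF and 68.5 and 187 FPKM in SCNT (adjusted p = 0.817). The latter, in an exon of Zfp187 on the other strand, was at 0 and 69.2 FPKM in IVF against 150 and 141 FPKM in SCNT (adjusted p = 0.814). The Mir1896 hairpin also matched, on the same strand, a transcript of the noncoding gene 4930470G03Rik, for which no value was found. Both SCNT values lay below both IVF values for Mir3112 and above them for Mir1896.

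Libraries of the same group differed more in the members than in other genes. For the 24 members above 0 in all 4 libraries, the median absolute difference in log2(FPKM + 1) was 1.02 between the IVF libraries and 1.19 between the SCNT libraries, and 0.75 between the group means. For tested genes other than short RNA genes these medians were 0.27, 0.23 and 0.15. Over all members they were 2.16, 1.50 and 2.60.

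**Figure D3:**
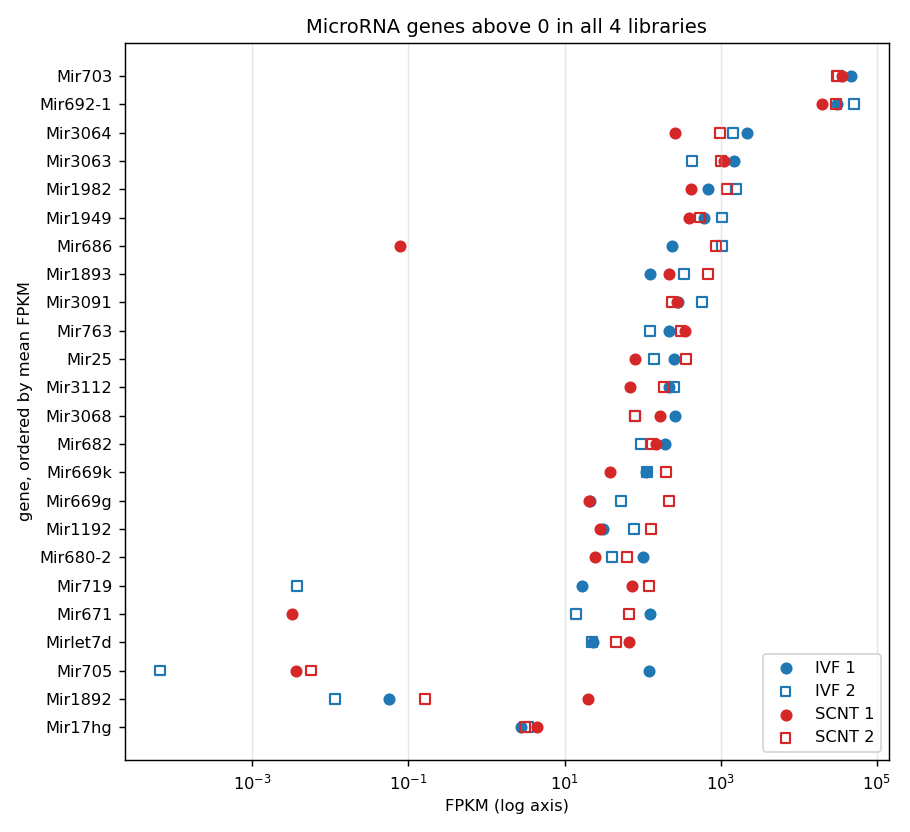
FPKM (log axis) of the 24 members above 0 in all 4 libraries, ordered by mean FPKM, with filled circles for library 1 and open squares for library 2, IVF in blue and SCNT in red. Both SCNT values lie above both IVF values for 4 genes and below them for 5, and Mir686, Mir719, Mir671, Mir705 and Mir1892 have a value below 1 FPKM.

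The microRNA genes inside Sfmbt2 formed the largest group of members at 1 locus. Sfmbt2 is an imprinted Polycomb-group gene, expressed from the paternal allele in extraembryonic tissue, and its intron on chromosome 2 holds a long cluster of repeated hairpins. Of 36 microRNA rows inside Sfmbt2, 11 were members, a grouping by placement made after the values were seen. They summed to 266 and 318 FPKM in IVF and 455 and 796 FPKM in SCNT, and 3, 5, 8 and 9 of them were above 0 in IVF 1, IVF 2, SCNT 1 and SCNT 2. Both SCNT sums and counts lay above both IVF ones. They include Mir4660, Mir466g, Mir669c, Mir669e and Mir669i, at 0 in both IVF libraries, which entered the set only through SCNT. Sums and counts therefore follow in part from how members were chosen, and no direction is read from them. Sfmbt2 itself was at 15.2 and 25.8 FPKM in IVF against 38.0 and 42.6 FPKM in SCNT, 1.96 times as high, but did not pass (difference 0.98 ± 0.28 SE, adjusted p = 0.519). Trophectoderm is the embryo's outer sheet, which goes on to the placenta, and 4 of 8 of its markers also had both SCNT values above both IVF values, none of them called. Elf5 was at 3.23 and 3.88 FPKM in IVF and 17.9 and 9.50 FPKM in SCNT, Eomes at 18.8 and 14.2 FPKM and 43.5 and 24.4 FPKM, and Cdx2 at 19.96 and 21.7 FPKM and 36.6 and 29.5 FPKM. The fourth was Id2, and the summed level of all 8 was 4845 and 4282 FPKM in IVF and 6715 and 4697 FPKM in SCNT, which overlapped. The remaining trophectoderm markers, Gata3, Krt8, Krt18 and Tfap2c, overlapped between groups, and Tfap2c had a lower estimate (-0.21 log2 units). Of the primitive endoderm markers, Gata4 and Pdgfra also had both SCNT values higher, while Gata6 and Sox17 overlapped. Of the inner cell mass and epiblast, the markers Pou5f1, Nanog, Sox2, Klf2 and Fgf4 all overlapped. Both SCNT values were higher for 18.3% of all tested genes. Whether this is more frequent among markers of 1 cell type was not tested. The part of the cell type markers in the result on Sfmbt2 and its hairpins was not tested either. By name, 38 rows of the families Mir297, Mir466, Mir467 and Mir669 also held 11 members, which summed to 266 and 329 FPKM in IVF and to 403 and 733 FPKM in SCNT. These are the same genes, save that Mir466i, on chromosome 13 inside Cdk13, takes the place of Mir4660. Their sums are thus no second result.

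Within the cluster, 9 of the 11 members had a higher and 2 a lower estimate in SCNT. Among the former, Mir466g, Mir669c, Mir669e, Mir669i and the called Mir4660 were at 0 in both IVF libraries. These met the limit on mean FPKM only through SCNT, so their direction follows from how they were chosen. Over all 121 members, 62 had a higher estimate, and no direction is read from the cluster's count beside it. Estimates are on the log2 scale, and that of Mir669a-3 was higher although its mean was 39.2 FPKM in IVF and 19.1 FPKM in SCNT. That of Mir669k was lower, with means of 112 FPKM in IVF and 117 FPKM in SCNT. Mir466 was at 134 and 0 FPKM in IVF against 260 and 131 FPKM in SCNT, and overlapped between groups. Mir669k was at 110 and 113 FPKM in IVF and 38.2 and 196 FPKM in SCNT, with SCNT 1 lowest and SCNT 2 highest. Mir669g was at 21.3 and 52.4 FPKM in IVF and 20.4 and 218 FPKM in SCNT, again lowest and highest in SCNT. Mir669a-3 and Mir669h had their highest value in IVF 2, at 78.4 and 39.3 FPKM. No allele can be read from these values.

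**Figure D4:**
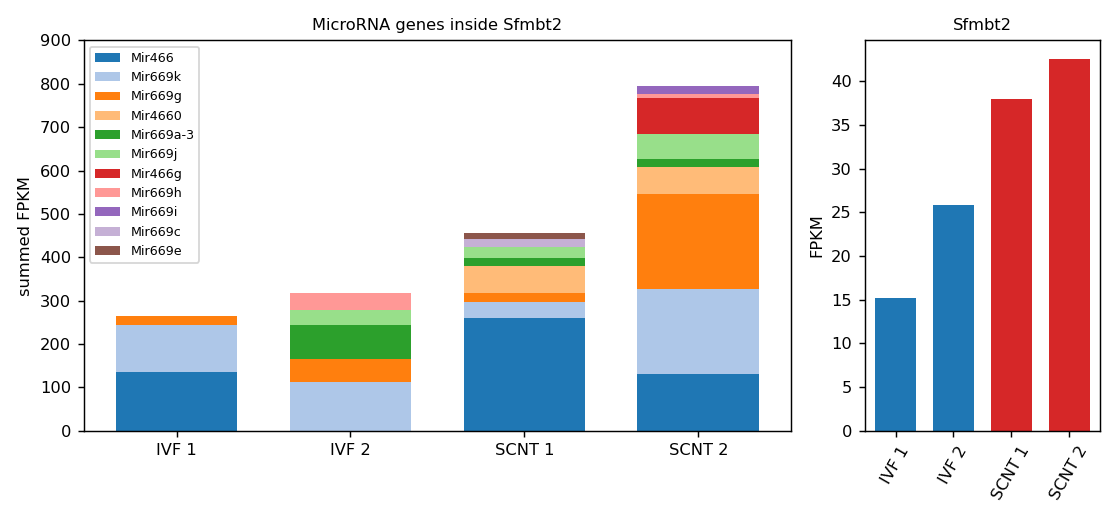
Left, FPKM of the 11 members inside Sfmbt2 stacked for each library; right, FPKM of Sfmbt2. The stacks reach 266 and 318 FPKM in IVF and 455 and 796 FPKM in SCNT, and the high stack of SCNT 2 holds 218 FPKM of Mir669g.

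Of the other clusters, that of the Mir302 genes and Mir367, known from pluripotent cells, had 4 members of 5 rows, inside Larp7 on the other strand. They summed to 121 and 387 FPKM in IVF and to 0 and 353 FPKM in SCNT, so the second library of each group was high. Mir367 was above 0 in IVF 2 (219 FPKM) and SCNT 2 (111 FPKM), Mir302a in IVF 2 (169 FPKM) and Mir302d in SCNT 2 (242 FPKM). Larp7, an RNA-binding protein gene, lay between 70.8 and 80.4 FPKM in the 4 libraries, with both SCNT values higher and no call.

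The let-7 list had 5 members of 12 rows, which summed to 116 and 57.6 FPKM in IVF and to 66.4 and 45.3 FPKM in SCNT. In SCNT that sum was Mirlet7d alone. Mirlet7e was above 0 only in IVF 1 (43.6 FPKM) and Mirlet7a-1 only in IVF 2 (34.8 FPKM). Estimates were higher for 1 and lower for 4 of these members, with none called.

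Mir106b-25, inside the DNA replication helicase gene Mcm7, had 2 members of 3 rows. Mir25 was at 249 and 141 FPKM in IVF and 79.7 and 363 FPKM in SCNT, and Mir93 at 58.4 FPKM in IVF 1 and 0 elsewhere. For Mir25 the SCNT libraries were the lowest and the highest of the 4. In Mir17-92, Mir19a was at 144 FPKM in SCNT 2 and Mir19b-1 at 49.7 FPKM in SCNT 1, each at 0 elsewhere. No row of the related Mir106a-363 cluster was a member. The imprinted Dlk1-Dio3 cluster, with 43 rows, had 2 members, Mir376b at 60.2 FPKM in SCNT 2 and Mir673 at 48.0 FPKM in SCNT 1, both at 0 elsewhere.

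Member and holding gene were compared for the 88 members inside 71 tested genes. Their SCNT minus IVF differences had the same sign for 48 of the 88 members, with a Pearson r of 0.19 and a Spearman rho of 0.14 across genes that share the 4 libraries. A gene that holds several members enters once for each, Sfmbt2 for 11 of them, so the pairs are not separate. For the 18 such members above 0 in all 4 libraries, 7 had the same sign and r was 0.02. The median absolute difference was 0.95 for those 18 members and 0.16 for the genes that hold them. Over all 88, with their many values at 0, it was 2.60 and 0.14. None of the 71 holding genes passed in limma, and 4 had an unadjusted p under 0.05, all higher in SCNT, namely H19, Sfmbt2, Cables1 and Smoc1. Over all tested genes 7.09% had such a p, so this number is no result about the holding genes.

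H19, an imprinted noncoding RNA gene whose exon gives miR-675, was at 0.845 and 0.748 FPKM in IVF against 7.97 and 3.38 FPKM in SCNT, both SCNT values being higher (adjusted p = 0.339). Mir675 was at 70.5 and 0 FPKM in IVF against 0.000326 and 19.7 FPKM in SCNT. Its highest value was thus in IVF 1, where H19 was low.

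**Figure D5:**
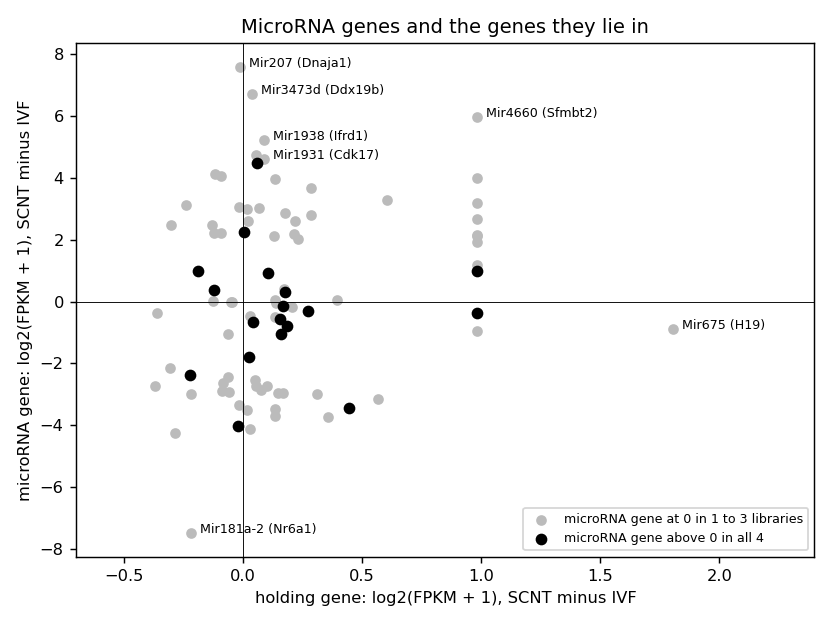
Difference in log2(FPKM + 1), SCNT minus IVF, of 88 members (vertical) against that of the gene each lies in (horizontal), with black points for members above 0 in all 4 libraries and the called members and Mir675 named. The members have a median absolute value of 2.60, while most holding genes lie within 0.5 of 0, and the column of points at 0.98 is the cluster inside Sfmbt2.

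No gene of a list of 31 for microRNA processing, export, action and turnover passed in limma, and none of the 28 tested had an unadjusted p under 0.05. Their median difference was -0.06 log2 units, against 0.01 over all genes, with 12 higher and 16 lower. Drosha was at 20.2 and 12.7 FPKM in IVF and 19.2 and 12.1 FPKM in SCNT, and its partner Dgcr8 at 9.53 and 8.91 FPKM in IVF and 9.16 and 8.06 FPKM in SCNT. Dicer1 was at 5.21 and 3.37 FPKM in IVF and 4.98 and 3.63 FPKM in SCNT. All 3 overlapped between groups. Xpo5 was at 10.9 and 9.83 FPKM in IVF and 13.0 and 12.1 FPKM in SCNT, both SCNT values being higher (adjusted p = 0.920).

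Argonaute 2, listed as Eif2c2, is the Argonaute that can cut its target. It was at 8.92 and 7.29 FPKM in IVF against 5.70 and 5.59 FPKM in SCNT (difference -0.45 ± 0.18 SE, adjusted p = 0.744), and Eif2c4 (Argonaute 4) was at 1.30 and 1.40 FPKM in IVF and 0.831 and 0.944 FPKM in SCNT (adjusted p = 0.898). Both SCNT values lay below both IVF values for each. Srrt and Zcchc11 overlapped between groups and had adjusted p-values of 0.953 and 0.992. Lin28b, a block on let-7 processing named here after its values were seen, was at 0.716 and 0.514 FPKM in IVF against 0.212 and 0.0830 FPKM in SCNT, under the level tested.

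FPKM over all genes summed to 933167 in the lowest and 985197 in the highest library, with 10802 to 10923 genes at 1 FPKM or more. All 8 trophectoderm, 5 inner cell mass and 4 primitive endoderm markers looked at had a mean of at least 1 FPKM, with none called. Of 10 fibroblast markers, the type of the donor cells, 1 did (Col1a1, mean 1.10 FPKM), Twist2 was at 0, and their sums were 3.46 and 1.79 FPKM in IVF and 6.33 and 1.38 FPKM in SCNT. None of 7 cumulus and granulosa cell markers did, with Amh, Cyp19a1 and Ptx3 at 0 and sums from 0.103 to 0.364 FPKM.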

How the data were processed

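RNA-seq libraries of pooled early blastocysts, 2 IVF and 2 SCNT, were grouped by title. Per the labels, cDNA was amplified with a SMARTer kit, sheared on a Covaris device and made into libraries with a NEBNext Ultra DNA kit. The deposited values, 1 per gene symbol, were taken to be FPKM, a unit inferred from the values and from Cufflinks among the tools. The submitters' processing notes list Cufflinks 2.2.1, Bowtie2 2.1.0 and TopHat2 2.0.14, and the mm9 build. Not given in the sources used here are the annotation, the use of strand and how reads that fit several genes were divided. Read depth is unknown.

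Values at or below 1e-06 were counted as 0. Genes with a mean of at least 1 FPKM, 11039 in all, were tested on log2(FPKM + 1) in limma 3.58.1 (R 4.3.3), with group alone in the model, a trend of variance with the mean, and Benjamini-Hochberg adjustment over all of them. Tested on simulated data with 200 of 11039 genes changed between these groups, it recovered 100% of them with 13 false calls. The planted changes were all larger than the differences of Sfmbt2 and Mirlet7d, and smaller ones were not tried. No pattern of 0 in 1 whole group was planted, so the called members are not covered by this test. Each simulated gene had a spread averaged over genes of like mean level. The wider spread of the members was thus not kept, and the recovery does not apply to them. Placement used RefSeq spans (GRCm38.p6, by symbol or synonym, 117 of 121 members) and, for exons and introns, GENCODE M21. An exon of any transcript of a gene counted as an exon. Hairpins were aligned to GENCODE transcripts with blastn 2.17.0. No coordinates of mm9 are given.

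Members and lists were chosen with earlier results of these data known. Named members are those called, the 10 with the highest mean, up to 5 per direction by unadjusted p, those at 0 in 1 whole group, up to 3 per cluster and those nearest the limit. Other members named were chosen after their values were seen. Alternatives were the pseudocount, the filter, scaling between libraries, the short RNA genes in the fit, the variance prior, a replicate block and leaving out each library. The same alternatives for the holding genes, looser match limits for hairpins, the alignment of Mir692-1 with Ftl1, and the sum without Mir692-1 were added after seeing the data. FPKM not being counts, no count model was fitted.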

Additional observations from a re-analysis of the deposited data

How the results depend on the processing

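The members called numbered 7, all at 0 in both libraries of 1 group, so their direction was fixed by that and says nothing of stability. The number was 6 with a filter of at least 5 FPKM, without Mir690, and 8 with a pseudocount of 0.1 or a robust prior, with Mir1b added. With 1 library left out, calls ranged from 21 to 29 among the members and from 36 to 43 over all genes, against 7 and 14, and a lone library was assumed to vary like the other group. The replicate block gave 7 member calls and 20 over all genes, 14 of them shared. The correlation of IVF 1 minus IVF 2 with SCNT 1 minus SCNT 2 was 0.31 over 11039 genes, and the labels do not say that the numbers pair libraries. No biogenesis or holding gene was called under any setting.

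The summed difference of -23260 FPKM was -17158 FPKM without Mir703, -7298 FPKM without Mir692-1 (added after seeing the data), and -28305 to -18216 FPKM with 1 library left out. Looser match limits (90% identity, 80% covered) gave 39 hairpins in expressed genes against 37. Of the named members, 8, none of them called, changed sign with 1 library left out and under no other setting. Their log2 differences ranged from -1.33 to 0.21 for Mir1982, -1.22 to 0.95 for Mir25, -0.52 to 1.27 for Mir3063, -4.37 to 3.40 for Mir367, -0.69 to 2.67 for Mir669g, -1.52 to 0.81 for Mir669k, -8.85 to 0.79 for Mir686 and -0.49 to 0.052 for Mir703. The cause was not tested. The reversed values were 0.02 and 0.21 for Mir1982, 0.27 and 0.95 for Mir25, and 3.40 and 2.92 for Mir367. Members at 0 in all libraries left gave no value there. Depth is unknown, so a 0 cannot be told from a level below detection.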
